A study of Homo sapiens with 10 samples.

Results

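Ribavirin is a guanosine-like nucleoside drug. It enters cells through the equilibrative nucleoside transporters ENT1 (SLC29A1) and ENT2 (SLC29A2), and adenosine kinase (ADK) adds its first phosphate, with the cytosolic nucleotidase NT5C2 also reported to act on it. The monophosphate inhibits IMP dehydrogenase, the rate-limiting enzyme of guanine nucleotide synthesis, which has a form named IMPDH1 and a form named IMPDH2 that is typical of proliferating cells. GMP synthetase (GMPS) carries the pathway on to GMP, GMP reductases (GMPR, GMPR2) return GMP to IMP, and HPRT1 salvages guanine and hypoxanthine. These 10 genes were taken by symbol for their known roles, with earlier results of these data known.

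The genes were followed on Affymetrix expression arrays of total RNA from the human prostate cancer lines DU145 and LNCaP, with 10 arrays in 6 groups. In each line, 2 arrays measured cells with the EOS vector, in which OCT4 and SOX2 enhancers drive GFP and puromycin resistance, after some weeks of puromycin. Another 2 measured control cells in which the ubiquitous PGK promoter drives those genes, and 1 measured EOS cells number 2 after ribavirin (EOS R), at a dose and time not given in the sources used here. All 10 samples thus carried a GFP and puromycin resistance vector, and none was an untransduced line. Nothing in the labels says that arrays numbered 1 and 2 came from separate cultures, so p-values cover only how these arrays vary, which could be technical variation.

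A probe set, the unit of measurement on these arrays, was used where its annotation held 1 gene symbol. By that rule 19 of 54613 probe sets were found, for 9 of the 10 genes, and GMPR2 was not analysed here. A probe set was tested if it lay above the array median in at least 2 of the 10 arrays, which left 15 of the 19, among 33451 in all, with at least 1 for each of the 9 genes. The 4 below that limit were NT5C2 241778_at, SLC29A2 1560062_at, SLC29A2 1560151_x_at and HPRT1 1565446_at. They lay between 4.08 and 6.31 in all arrays, close to the floor of 4 of the scale, and are not described further. Values are log2(intensity + 16) after each array was scaled to a 2% trimmed mean of 500, and differences are on this scale, which understates the change of dim probe sets. Levels of different probe sets were not compared with each other.

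Arrays numbered 1 and 2 differed as a set. Their trimmed means as deposited were 500 in the 4 arrays numbered 1 and 96.6 to 127 in the 6 numbered 2. The 3' to 5' ratio of ACTB, a sign of RNA length, was 1.24 to 1.51 and 3.20 to 3.99. For GAPDH it was 0.96 to 1.06 in number 1 and 1.09 to 1.22 in number 2, a smaller shift. Both ribavirin arrays belong to number 2. The 4 LNCaP identity markers measured here (KLK2, KLK3, TMPRSS2, HOXB13) were higher in all 5 LNCaP arrays than in all 5 DU145 arrays, and the 4 DU145 markers (CD44, VIM, GSTP1, ZEB1) were lower in all 5. Of the 11 markers of fibroblasts, leukocytes and endothelium 6 passed the filter. Of these, COL3A1 was higher in all DU145 arrays (5.71 to 9.01, against 4.37 to 5.23) and VWF in all LNCaP arrays (5.51 to 7.23, against 4.53 to 5.29). The other 4 overlapped between the lines: COL1A1 (7.61 to 9.47 in DU145, 7.52 to 9.39 in LNCaP), DCN, CD3E and PECAM1. Their part in the line differences was not tested.

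In the comparison of the lines given further on, SLC29A1, ADK, NT5C2, HPRT1 and GMPR each had a probe set that passed as lower in LNCaP. For the first 4 of these genes the 250 bases before the annotated gene start are shown. They are RefSeq reference sequence on GRCh38.p14, given 5′ to 3′ on the gene's strand, with capitals marking the GC box (GGGCGG or its reverse complement CCGCCC).
SLC29A1 (chr6:44219365-44219614, plus strand): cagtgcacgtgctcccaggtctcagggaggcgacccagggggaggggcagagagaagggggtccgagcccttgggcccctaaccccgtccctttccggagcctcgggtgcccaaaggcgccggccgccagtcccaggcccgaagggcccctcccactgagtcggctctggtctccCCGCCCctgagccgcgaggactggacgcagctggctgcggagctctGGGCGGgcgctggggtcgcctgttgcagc
ADK (chr10:74150971-74151220, plus strand): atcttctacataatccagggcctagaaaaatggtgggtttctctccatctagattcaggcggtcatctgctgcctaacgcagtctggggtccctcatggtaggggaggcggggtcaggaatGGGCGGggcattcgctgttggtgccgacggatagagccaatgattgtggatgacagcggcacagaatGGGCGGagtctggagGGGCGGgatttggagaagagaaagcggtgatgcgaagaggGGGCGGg
NT5C2 (chr10:103193273-103193522, minus strand): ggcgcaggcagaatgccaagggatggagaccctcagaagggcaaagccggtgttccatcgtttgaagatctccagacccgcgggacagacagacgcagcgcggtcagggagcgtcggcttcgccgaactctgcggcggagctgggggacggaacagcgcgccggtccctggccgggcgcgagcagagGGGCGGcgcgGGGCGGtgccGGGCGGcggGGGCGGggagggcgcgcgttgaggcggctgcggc
HPRT1 (chrX:134459915-134460164, plus strand): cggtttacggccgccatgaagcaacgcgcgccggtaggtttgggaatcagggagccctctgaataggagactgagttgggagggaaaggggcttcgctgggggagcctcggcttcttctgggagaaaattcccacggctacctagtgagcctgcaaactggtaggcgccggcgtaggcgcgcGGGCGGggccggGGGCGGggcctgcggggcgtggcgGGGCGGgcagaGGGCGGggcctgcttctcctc
The window held 2 GC boxes in SLC29A1 and 4 each in ADK, NT5C2 and HPRT1, and 42.6% of the 35116 windows of that length held at least 1. G and C made up 73.2% of the SLC29A1 window, 57.6% of that of ADK, 73.6% of that of NT5C2 and 68.8% of that of HPRT1, against a median of 58.0% over all windows. On both strands, CACGTG, the E-box, was found in SLC29A1 (6.34% of all windows) and CCAAT in ADK (32.0%), while TATAAA, TGACGTCA and the NRF1 site were in none of the 4 windows (10.7%, 1.65% and 1.03% of all). The GMPR window, which is not shown, held 2 GC boxes and 1 CCAAT, with 71.2% G and C. That of IMPDH1, which did not pass between the lines, held 4 GC boxes, with 71.6% G and C. For IMPDH2 and GMPS, which had probe sets higher in LNCaP, no window at the gene start was available. Windows of genes higher and lower there were thus not compared. Each motif was counted by itself, whether or not matches of different motifs overlap. A match describes the letters and does not show binding.

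After ribavirin, IMPDH2, the form of the drug's target enzyme typical of proliferating cells, had the treated DU145 array furthest above the untreated ones among the 15 tested member probe sets. Its level was 13.43 in PGK 1, 13.22 in PGK 2, 13.29 in EOS 1, 13.39 in EOS 2 and 14.14 in EOS R. The 4 untreated arrays thus lay within 0.20 of each other, and the treated array lay 0.71 above the highest of them. Against EOS 2, the cells it was made from, EOS R was higher by 0.75, a ratio of 1.69. In LNCaP the levels were 14.05 in PGK 1, 14.49 in PGK 2, 14.02 in EOS 1, 14.19 in EOS 2 and 14.49 in EOS R. Here the treated array was 0.30 above EOS 2 but inside the untreated range, whose top was PGK 2. Without PGK 2 it lay 0.30 above the remaining untreated arrays.

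A rise of at least that of IMPDH2 from EOS 2 to EOS R was seen in 6.19% of all tested probe sets in DU145 and 15% in LNCaP. IMPDH2 is bright, and bright probe sets varied less. Among the 2264 with a mean of at least 12, a limit chosen after the values were seen, the central 90% of differences ran from -0.20 to 0.23 in DU145 and from -0.17 to 0.23 in LNCaP. Of these, 3 (0.133%) rose as far as IMPDH2 in DU145, namely IMPDH2 itself, PRELID3B at 0.91 and 217092_x_at, which has no gene in the annotation, at 0.75. In LNCaP the share was 2.08%, and PRELID3B was at 0.13 and 217092_x_at at -0.31. The difference of IMPDH2 was 0.71 in DU145 and 0.28 in LNCaP with quantile normalization and 0.80 and 0.37 on the unscaled values. With quantile normalization its treated array lay 0.68 above the untreated range in DU145 and 0.07 above it in LNCaP.

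In the fit across all probe sets, where EOS R is set against both EOS arrays and the single treated array is assumed to vary like the other groups, IMPDH2 was at 0.80 ± 0.22 in DU145 (SE; 1 array against 2). Its unadjusted limma p was 0.00528 and its adjusted p was 1.00. It was at 0.39 ± 0.22 in LNCaP, and at 0.23 ± 0.18 with line and number as a replicate block (limma adjusted p = 1.00 in both). Over both lines it was at 0.59 ± 0.16 (limma fit, adjusted p = 1.00; unadjusted p = 0.00398), so it did not pass the threshold. The LNCaP minus DU145 difference of these effects was -0.41 ± 0.31 (limma adjusted p = 1.00). With the block it was -0.59 ± 0.26 (limma adjusted p = 1.00). A different response of the lines was therefore not shown. limma called 0 of the 15 member probe sets and 0% of all in each ribavirin comparison. At an unadjusted p under 0.05 it had 2 of 15 members and 2.09% of all in DU145, 0 of 15 and 2.63% in LNCaP, and 2 of 15 and 2.51% over both lines. With 1 treated array per line, these data hold no replicate of the treatment.

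IMPDH1, the other form of the enzyme, gave no such rise. In DU145 it was at 9.20 in PGK 1, 9.22 in PGK 2, 9.34 in EOS 1, 9.36 in EOS 2 and 9.30 in EOS R, inside the untreated range. In LNCaP it was at 9.32, 9.61, 9.48, 9.76 and 9.78 in the same order, so that EOS R exceeded EOS 2, the highest untreated array, by 0.02. The limma differences were -0.06 ± 0.29 in DU145 and 0.16 ± 0.29 in LNCaP.

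**Figure D1:**
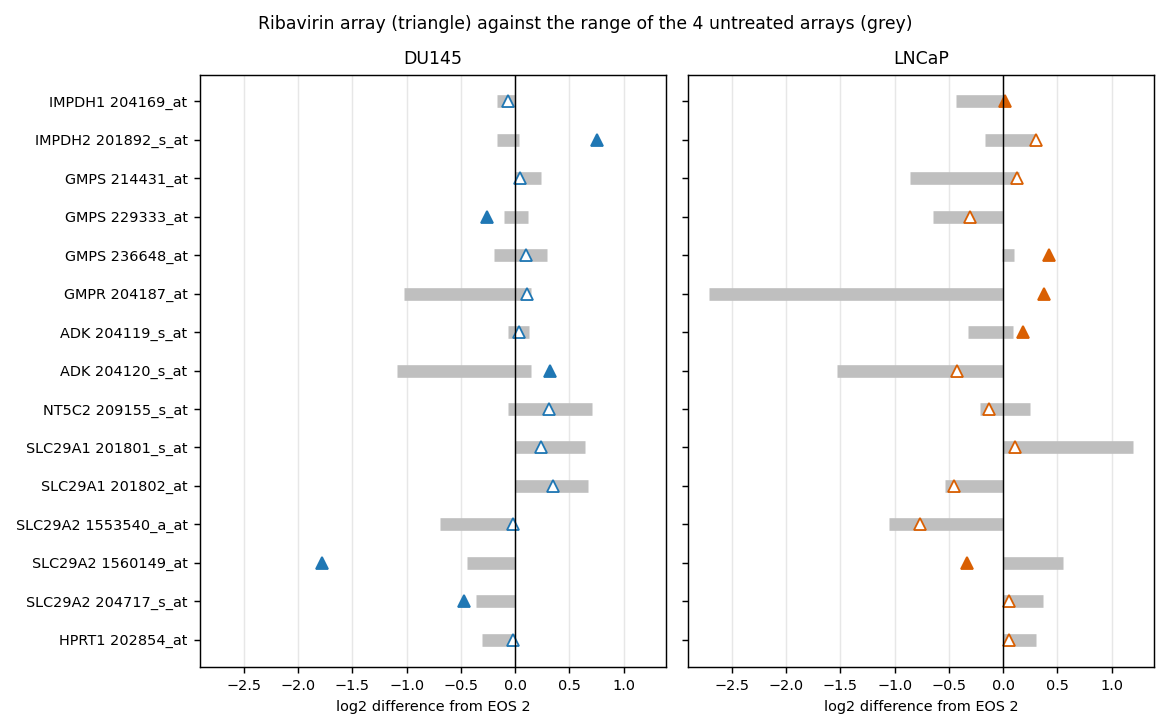
Log2 difference from the EOS 2 array (x axis) for the 15 tested member probe sets (y axis) in DU145 (left) and LNCaP (right). Grey bars span the 4 untreated arrays, triangles are the single ribavirin array, and filled triangles lie outside the bar; IMPDH2 in DU145 is 0.71 above its bar and SLC29A2 1560149_at 1.33 below.

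Among the transporters, 1 SLC29A2 probe set stood out in the other direction. SLC29A2 1560149_at was at 7.15 in PGK 1, 6.72 in PGK 2, 6.98 in EOS 1, 7.17 in EOS 2 and 5.39 in EOS R of DU145. It was at 6.62, 6.46, 6.98, 6.43 and 6.10 in LNCaP in the same order. The treated array was the lowest of its line in both, by 1.33 in DU145 and 0.33 in LNCaP. A fall from EOS 2 of at least the size seen for this probe set was found in 0.586% of all probe sets in DU145 and in 21.6% in LNCaP. Unlike for IMPDH2, no share among probe sets of similar brightness was taken. With the main scaling this was the only tested member probe set outside the untreated range in the same direction in both lines. With quantile normalization IMPDH2 also lay outside, above the range in both. It is dim, and with a pseudocount of 64 the distance in DU145 was -0.77. EOS R minus EOS 2 was -1.78 in DU145, -1.79 with quantile normalization and -0.94 on the unscaled values. In LNCaP these were -0.33, -0.18 and -0.15. The limma difference was -1.68 ± 0.46 in DU145 (unadjusted p = 0.00536, adjusted p = 1.00) and -1.14 ± 0.33 over both lines (unadjusted p = 0.0067, adjusted p = 1.00).

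The other SLC29A2 probe sets did not share this fall in both lines. SLC29A2 204717_s_at was at 8.79 in EOS R of DU145, 0.11 below the untreated range, and at 8.51 in LNCaP, inside it. SLC29A2 1553540_a_at was inside in both lines, with EOS R minus EOS 2 at -0.02 in DU145 and -0.77 in LNCaP. The value for the gene thus depends on the probe set. Both SLC29A1 probe sets, which measure the main equilibrative transporter, were inside the untreated range in both lines. Their EOS R minus EOS 2 differences were 0.24 and 0.35 in DU145 and 0.11 and -0.45 in LNCaP.

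For the phosphorylating enzymes the differences after ribavirin were small or depended on the probe set. ADK 204119_s_at was inside the untreated range in DU145, at 12.98, and 0.09 above it in LNCaP, at 12.68. ADK 204120_s_at was 0.18 above in DU145, at 10.51, and inside in LNCaP, at 9.86. Against both EOS arrays of DU145 it was at 0.87 ± 0.69 (limma adjusted p = 1.00), higher than IMPDH2 but with a wider error, and at 0.38 ± 0.27 with the replicate block. NT5C2 209155_s_at was inside in both lines, at 12.30 and 11.34. Of the enzymes past IMP dehydrogenase, GMPS gave 0.04, -0.26 and 0.10 for EOS R minus EOS 2 in DU145 with its 3 probe sets (214431_at, 229333_at and 236648_at) and 0.13, -0.31 and 0.42 in LNCaP. GMPS 229333_at was 0.16 below the DU145 range and GMPS 236648_at 0.33 above the LNCaP range, so its probe sets gave no common direction. GMPR was at 9.54 in EOS R of DU145, inside the range, and at 8.88 in LNCaP, 0.38 above it. Against both EOS arrays of LNCaP it was at 1.42 ± 0.95, and at 0.40 ± 0.31 with the replicate block (limma adjusted p = 1.00 in both). HPRT1 202854_at, the salvage enzyme, was inside in both lines, with differences of -0.02 and 0.05.

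Counted over the members, the ribavirin array of DU145 lay above the untreated range in 2 of 15 probe sets (23.9% of all tested probe sets) and below it in 3 (17.7%). In LNCaP it lay above in 4 (16.9%) and below in 1 (19.9%). In both lines, 0 were above (4.8%) and 1 was below (4.12%), though with quantile normalization IMPDH2 was above in both. The shares of the members are near those of all probe sets or rest on few probe sets. The median of EOS R minus EOS 2 was 0.04 over the members and 0.01 over all in DU145, and 0.05 and -0.03 in LNCaP. Against PGK 2 and EOS 2 alone, which share the number of EOS R, it was above in 7 of 15 (36.3%) and below in 3 (29.9%) in DU145, and above in 4 (29%) and below in 1 (31.9%) in LNCaP. In both lines, 2 were above (10.8%) and 1 was below (9.63%).

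**Figure D2:**
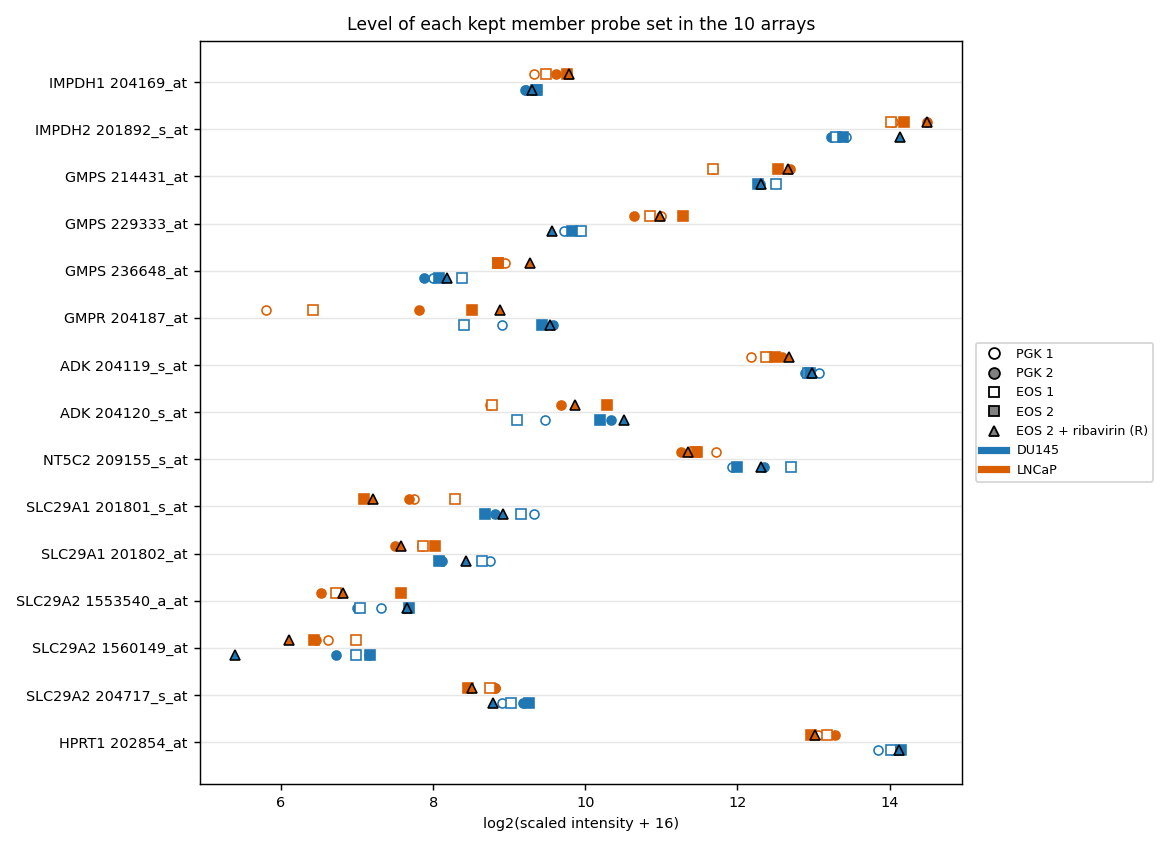
Level of each of the 15 tested member probe sets (y axis) in the 10 arrays, as log2(scaled intensity + 16) (x axis); circles are PGK, squares EOS, triangles ribavirin, open symbols arrays numbered 1 and filled ones arrays numbered 2, blue DU145 and orange LNCaP. In the untreated arrays LNCaP lies above DU145 for IMPDH2 and below it for HPRT1. The treated DU145 array, at 14.14 for IMPDH2, lies within the LNCaP range. GMPR and ADK 204120_s_at spread widely between array numbers.

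Without the drug, limma called 8 of the 15 member probe sets between the lines, 3 higher in LNCaP (18.4% of all) and 5 lower (21%). LNCaP had more IMPDH2 RNA, at 14.19 ± 0.22 against 13.33 ± 0.09 in DU145 (SD, n = 4 untreated arrays each), with the groups apart. The difference was 0.85 ± 0.13 (SE; 1.81-fold, limma adjusted p = 0.000693; exact two-sided permutation p = 0.0286). That p is the smallest that the 70 splits of 4 against 4 arrays can give. The splits took no account of array number or of PGK and EOS. IMPDH1 was at 9.54 ± 0.19 and 9.28 ± 0.08, with overlapping arrays and a difference of 0.26 ± 0.17 that did not pass (limma adjusted p = 0.245). The treated DU145 array, at 14.14 for IMPDH2, lay within the range of the untreated LNCaP arrays, 14.02 to 14.49.

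GMPS was higher in LNCaP by 2 of its 3 probe sets. GMPS 229333_at was at 10.94 ± 0.27 against 9.85 ± 0.10 in DU145, higher by 1.09 ± 0.17 (2.13-fold, limma adjusted p = 0.000886), and GMPS 236648_at was higher by 0.79 ± 0.18 (limma adjusted p = 0.0066). GMPS 214431_at gave -0.19 ± 0.25 (limma adjusted p = 0.59), with -0.72 between the arrays numbered 1 and 0.34 between those numbered 2. In LNCaP this probe set was at 11.68 in both arrays numbered 1 and at 12.68 and 12.54 in those numbered 2.

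Of the uptake genes, SLC29A1 was lower in LNCaP by 1 of its 2 probe sets, and SLC29A2 passed by 0 of 3. SLC29A1 201801_s_at was at 9.33, 8.81, 9.16 and 8.68 in PGK 1, PGK 2, EOS 1 and EOS 2 of DU145 and at 7.75, 7.69, 8.29 and 7.09 in LNCaP. All LNCaP arrays lay below all of DU145, with a difference of -1.29 ± 0.29 (2.45-fold, limma adjusted p = 0.00639; exact permutation p = 0.0286). SLC29A1 201802_at also had its groups apart, at -0.58 ± 0.24, and passed only with the replicate block (limma adjusted p = 0.0785 without it and 0.0235 with it). The 3 SLC29A2 probe sets were at -0.36, -0.38 and -0.39 and did not pass (limma adjusted p = 0.349, 0.296 and 0.12). Only for 204717_s_at did the arrays of the lines not overlap.

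Of the enzymes of phosphorylation and salvage, ADK was lower in LNCaP by 1 of its 2 probe sets, and NT5C2 and HPRT1 by their single tested ones. ADK 204119_s_at was at 12.96 ± 0.08 in DU145 and 12.41 ± 0.18 in LNCaP, lower there by a log2 difference of -0.55 ± 0.13 (limma adjusted p = 0.00877; exact permutation p = 0.0286). ADK 204120_s_at gave -0.40 ± 0.40, with overlapping arrays, and passed only with the block (limma adjusted p = 0.469 without it and 0.0454 with it). NT5C2 209155_s_at was at 12.24 ± 0.36 and 11.47 ± 0.19, a difference of -0.77 ± 0.19 (limma adjusted p = 0.0118), which did not pass without DU145 PGK 2 (adjusted p = 0.0582). HPRT1 202854_at was at 14.01 ± 0.12 and 13.12 ± 0.13, with the groups apart and a difference of -0.89 ± 0.11 (1.85-fold, limma adjusted p = 0.000287; exact permutation p = 0.0286).

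GMPR had the widest difference between the lines among the members, and in LNCaP the widest spread. In DU145 the spread of ADK 204120_s_at (SD 0.59) exceeded that of GMPR (SD 0.53). GMPR was at 8.90, 9.57, 8.40 and 9.43 in PGK 1, PGK 2, EOS 1 and EOS 2 of DU145 and at 5.80, 7.82, 6.42 and 8.50 in LNCaP. The groups overlapped by 1 LNCaP array, EOS 2, and the difference was -1.94 ± 0.55 (limma adjusted p = 0.02; exact permutation p = 0.0571). The arrays numbered 2 were higher than those numbered 1 by 0.85 in DU145 and 2.05 in LNCaP, and the ACTB 3' to 5' ratio was also higher in number 2; its part in this was not tested. Within number 1 the lines differed by -2.54 and within number 2 by -1.34. The adjusted p was 0.0741 without DU145 PGK 2, 0.0828 without DU145 EOS 2, 0.0559 without LNCaP PGK 1 and 0.0511 without LNCaP EOS 1.

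Over the 15 member probe sets, the arrays of the lines were apart in 3 with LNCaP above (18.9% of all) and in 6 with LNCaP below (21.8%). The median difference was -0.39 over the members and -0.03 over all probe sets. In 10 of the 15 the lines were also apart in the same direction within each array number, 2 arrays against 2 (48.5% of all). In bulk RNA, fewer cells with a gene's RNA and less of it per cell cannot be told apart.

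**Figure D3:**
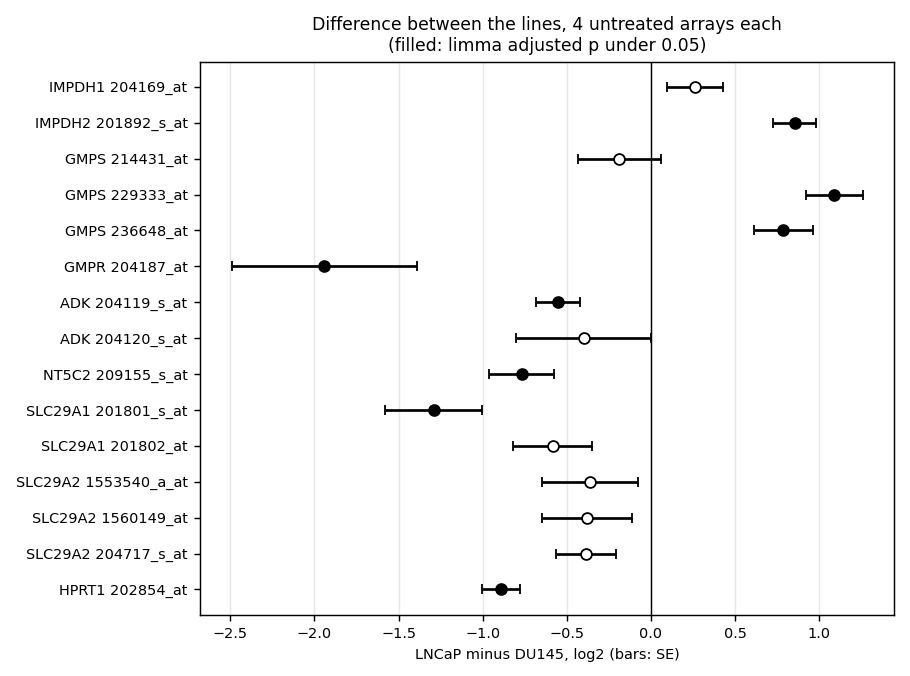
LNCaP minus DU145 over the 4 untreated arrays of each line (x axis, log2, bars are the limma SE) for the 15 tested member probe sets; filled points passed an adjusted p of 0.05. IMPDH2 and 2 GMPS probe sets are higher in LNCaP, and SLC29A1, ADK, NT5C2, HPRT1 and GMPR each have a probe set that is lower.

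EOS selection against the PGK control, the comparison the series was built on, called 0 of the 15 member probe sets in either line (0% of all). At an unadjusted limma p under 0.05 there were 0 of 15 members in each line, against 1.93% of all in DU145 and 3.74% in LNCaP. IMPDH1 differed by nearly the same amount in all 4 pairs of arrays of the same number, 0.14 and 0.15 in DU145 and 0.16 and 0.15 in LNCaP. It was the only member probe set above 0 in all 4 pairs (8.29% of all probe sets were). With quantile normalization the pairs gave 0.18, 0.16, 0.14 and 0.11, but on the unscaled values DU145 pair 2 turned to -0.21, where the median of all was -0.27. The limma difference was 0.15 ± 0.23 in both lines. For IMPDH2 the pairs were -0.13 and 0.16 in DU145 and -0.03 and -0.31 in LNCaP, so no common direction was seen. The transporter SLC29A2 1553540_a_at spread furthest, with -0.28 and 0.69 in DU145 and -0.03 and 1.05 in LNCaP.

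**Figure D4:**
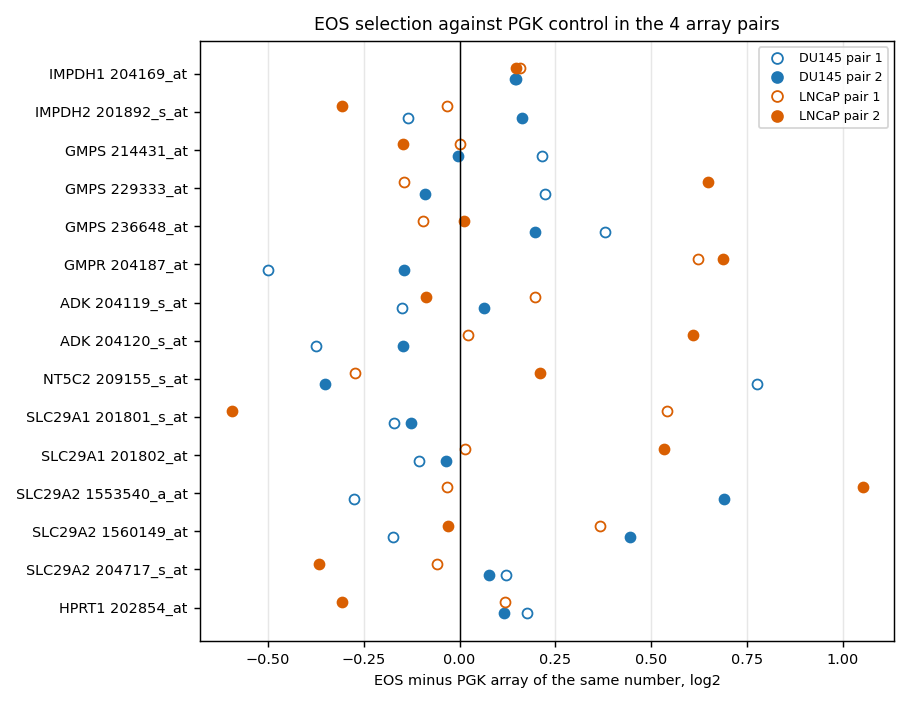
EOS minus PGK for arrays of the same number (x axis, log2) for the 15 tested member probe sets; open points are pair 1, filled points pair 2, blue DU145 and orange LNCaP. The 4 IMPDH1 points lie between 0.14 and 0.16, while GMPR lies below 0 in both DU145 pairs and above 0 in both LNCaP pairs.

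The wider nucleotide pathway was taken as a list of 43 further genes, of which 37 had a tested probe set (the brightest was used). After ribavirin 0 of 37 passed in either line or over both. The ribavirin array lay above the untreated range for 5 and below for 7 in DU145, and for 5 and 8 in LNCaP, against 23.9% and 17.7% of all probe sets in DU145 and 16.9% and 19.9% in LNCaP. Against EOS 2 the list's median was -0.00 in DU145 and 0.00 in LNCaP. With EOS selection 0 of 37 passed in either line. Between the untreated lines 10 of 37 were higher in LNCaP and 11 lower (18.4% and 21% of all probe sets). The subgroups of this list are too small to be read against those shares. Of 8 de novo purine synthesis genes 1 was higher and 1 lower, and of 3 adenylate branch genes 1 and 2. Salvage and breakdown had 2 higher and 1 lower of 6, and 5′ nucleotidases 1 and 3 of 5. Nucleoside transporters had 0 higher and 2 lower of 5, and guanylate and nucleoside diphosphate kinases 2 and 1 of 4. Ribonucleotide reductase had 2 higher (RRM1 and RRM2) and 0 lower of 3, and tetrahydrobiopterin synthesis 1 and 1 of 3.

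The pathway genes of smallest p were NT5E, the cell surface nucleotidase CD73, at -5.91 ± 0.25 (limma adjusted p = 3.43e-07), and NME4, a mitochondrial nucleoside diphosphate kinase, at -4.61 ± 0.32 (adjusted p = 6.14e-06). NT5E lay between 4.08 and 4.52 in LNCaP, near the floor, where a difference depends on the pseudocount. NME4 lay between 4.96 and 6.35 in untreated LNCaP, near the array medians of 6.12 to 6.45, so the size of its difference is likewise uncertain. Higher in LNCaP were DCK, which phosphorylates deoxynucleosides, at 1.44 ± 0.15 (adjusted p = 7.81e-05), and GUK1, the kinase that turns GMP into GDP, at 1.28 ± 0.23 (adjusted p = 0.00196). So were GCH1, which starts tetrahydrobiopterin synthesis from GTP, at 0.95 ± 0.16 (adjusted p = 0.00147), and ATIC, which makes IMP in the last steps of purine synthesis, at 0.69 ± 0.13 (adjusted p = 0.00274).

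After subtracting each line's mean, the genes whose 10 values followed IMPDH2 most closely were HABP2 (Pearson r = 0.93), KHDRBS1 (r = 0.92) and CYP2D6 (r = 0.90). For IMPDH1 they were STAU1 (r = 0.98), MYH9 (r = 0.97) and RIOK3 (r = 0.97). They are the highest of 14312 genes over 10 arrays that share lines, numbers and scaling, so they are a description only. IMPDH1 and IMPDH2 correlated at r = 0.37 by the same measure.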

How the data were processed

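Total RNA of 10 samples was measured on 1 Affymetrix array each. The authors deposited probe set intensities on a linear scale, for which MAS5 and affy are listed in the submitters' processing notes; which versions and which scaling were used is not given in the sources used here. From the deposited intensities each array was scaled to a 2% trimmed mean of 500, since the arrays came on different scales, and log2(intensity + 16) was taken. Of 54675 probe sets 62 array controls were left out, and 33451 above the array median in at least 2 arrays were tested. In the platform annotation 41097 probe sets had 1 symbol, 1801 several and 11777 none; 41043 of the first matched a current gene by Entrez identifier, which changed 0 symbols. Gene windows came from RefSeq.

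Differences were fitted with limma 3.58.1 in R 4.3.3, with means of the 6 groups over all arrays (4 residual degrees of freedom), an intensity trend and Benjamini-Hochberg adjustment over all tested probe sets at 0.05; the script was tested on simulated data. SE values come from this shared spread. Within a line, same-numbered PGK and EOS arrays deviated together from their group means (r = 0.194 for DU145 and 0.449 for LNCaP, across probe sets). Since arrays numbered 1 and 2 differed as a set, this r cannot show that samples were paired. The labels tie each ribavirin array to EOS number 2. The fit was therefore also run with a replicate block (line by number), which left only 2 residual degrees of freedom. The members and lists were chosen with earlier results of these data known. All members are described; pathway genes were named where they passed, at most 6 by smallest p. Alternatives were the pseudocount, the filter, 1 probe set per gene, quantile normalization, unscaled values, no trend, arrays numbered 2 alone and leaving out each array. Precision is limited by the small number of arrays.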

Additional observations from a re-analysis of the deposited data

Results flagged for a closer look

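In EOS minus PGK, 4 member probe sets lay on 1 side of 0 in both DU145 pairs and on the other in both LNCaP pairs, a pattern that 14.6% of all probe sets had. GMPR, the reductase that turns GMP back into IMP, gave -0.50 and -0.15 in DU145 and 0.62 and 0.69 in LNCaP. Its LNCaP minus DU145 difference was 0.98 ± 1.10 (limma adjusted p = 1.00). With the replicate block its error was 0.33 (limma adjusted p = 0.688). ADK 204120_s_at gave -0.37 and -0.15 in DU145 and 0.02 and 0.61 in LNCaP, a difference of 0.58 ± 0.80 (limma adjusted p = 1.00). For SLC29A1 201802_at the pairs were -0.11 and -0.04 in DU145 and 0.02 and 0.53 in LNCaP, a difference of 0.34 ± 0.47 (limma adjusted p = 1.00). The SLC29A2 probe set 204717_s_at ran the other way, with 0.12 and 0.08 in DU145, -0.06 and -0.37 in LNCaP and a difference of -0.31 ± 0.36 (limma adjusted p = 1.00). The test of the difference passed for none of these 4 with or without the block.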

How the results depend on the processing

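Over the alternatives run, the counts of member probe sets called were unchanged at 0 in each of the ribavirin and EOS comparisons. Of the 15 differences in EOS against PGK, the sign changed under at least 1 alternative for 14 in DU145 and 10 in LNCaP. Between the lines 8 were called, from 6 to 8 with 1 array left out, 10 with the replicate block (16623 called in all), 6 of 9 with 1 probe set per gene (6626 called in all), and 0 on the unscaled values, where each group mixes the 2 deposited scales and 651 probe sets were called in all against 13186. The block changed no other call of a member. With 1 array left out only GMPR and NT5C2 lost their calls. Outside the untreated range were 5 of 15 probe sets in each line. Over all tested probe sets, 23.9% lay above and 17.7% below in DU145, and 16.9% and 19.9% in LNCaP. In DU145 the member count was 10 against the arrays numbered 2 only (all: 36.3% above and 29.9% below). With 1 untreated array left out it was 6 to 7. In LNCaP it was 5 to 10 with 1 left out, with 9 without PGK 2 and 10 without EOS 2. With 1 left out the share over all was not counted, so those counts describe the members only. For IMPDH2, ribavirin against EOS ran from 0.75 to 0.85 in DU145, 0.30 to 0.47 in LNCaP and 0.55 to 0.64 over both lines with 1 array left out, and was 0.53 over both lines in the arrays numbered 2 only. The range of its adjusted p over both lines was 0.698 to 1.00 with 1 array left out. The single ribavirin arrays cannot be left out of these values. SLC29A2 1560149_at in LNCaP was at -0.60 against both EOS arrays and -0.33 without EOS 1. The unscaled fit was not run for the ribavirin comparisons, since the EOS arrays mix both scales.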
